A study of Rattus norvegicus with 34 samples.

Results

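Gene expression was compared between livers of F344 rats at 11 and at 6 months of age. F344 is an inbred albino strain widely used in studies of ageing. The comparison used 8 of the 34 arrays of the series, 4 from 11-month rats and 4 from 6-month rats, chosen by the age and strain in their source labels. All 8 rats were untreated males, each gave 1 array, and they were kept by their supplier until the week before they were killed. The study as a whole concerned the enzymes that metabolise foreign compounds (drugs, solvents and toxins) in ageing rat liver. It also holds 4 F344 rats at 18 months and 4 at 24 months, and male Brown Norway rats. Of the latter, 3 controls of the toluene experiment at 12 months and 3 at 4 months are compared below. All 18 Brown Norway arrays, toluene-exposed and 24-month rats included, entered the estimate of spread for that comparison.

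The liver clears foreign compounds in steps: cytochromes P450 and other phase 1 enzymes modify them, transferases attach glutathione, glucuronic acid or sulfate, and transporters move them across the cell membrane. In rats many of these genes are sex-dependent, because growth hormone is released in pulses in males and more evenly in females, and the pulses keep the male genes on. Old male rats are known to lose that pattern. Both ages compared here are adult, so the comparison addresses whether any part of such a shift is already measurable by mid-life.

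The libraries looked like liver: all 15 hepatocyte markers measured lay above a signal of 32, the floor below which signals were not resolved, on all 8 arrays. Between 59.5% and 60.7% of probe sets were above that floor on each of the 8 arrays. The ratio of 3' to 5' GAPDH signal, which grows as RNA degrades, was 7.33, 3.74, 1.88 and 1.49 at 11 months, against 4.35, 1.66, 2.96 and 1.93 at 6 months. The ratio averaged 3.61 ± 2.67 at 11 months and 2.72 ± 1.22 at 6 months (SD, n = 4 each), and an exact two-sided permutation test of its log2 values gave p = 0.8, where 0.0286 is the smallest p that 4 against 4 allows. The 11-month array with the ratio of 7.33, replicate 1, also stood apart over all genes. Its median correlation with the other 7 arrays was 0.956 across genes, against 0.968 to 0.980 for the others.

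A probe set for Vcp, an ATPase that extracts proteins for degradation, split the F344 arrays in a way that age did not. It read between 823 and 1007 on 4 of the 16 F344 arrays, namely replicate 1 at 11 months, replicates 1 and 3 at 6 months and replicate 4 at 18 months. On the other 12 F344 arrays it read between 1.05 and 1.92, and on all 18 Brown Norway arrays between 931 and 1205. Those 4 F344 arrays had GAPDH ratios of 2.96, 4.35, 5.31 and 7.33, and of the remaining F344 arrays only replicate 2 at 11 months, with 3.74, reached that range. The origin of the split was not tested.

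**Figure D1:**
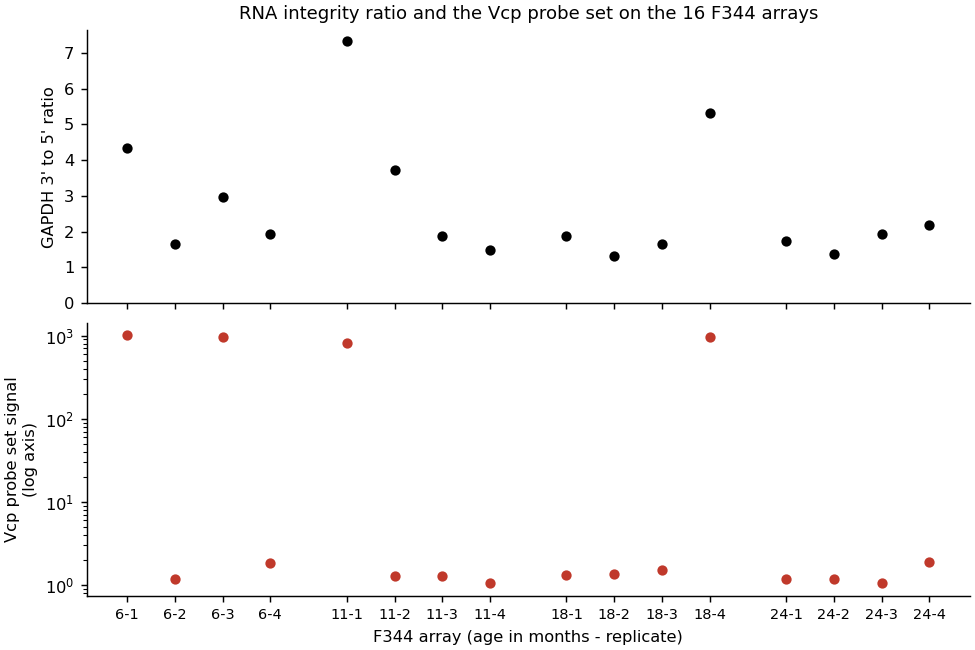
GAPDH 3' to 5' ratio (upper panel) and Vcp probe set signal (lower panel, log axis) on each of the 16 F344 arrays, labelled by age in months and replicate. The 4 arrays with Vcp signals between 823 and 1007 include replicate 1 at 11 months, whose GAPDH ratio of 7.33 is the highest.

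No gene passed the test between 11 and 6 months: 0 of 9214 tested genes (0%) had an adjusted p under 0.05 by limma with Benjamini-Hochberg adjustment. The smallest adjusted p was 0.718. At an unadjusted p under 0.05 there were 357 genes (3.87%), 206 higher (2.24%) and 151 lower (1.64%) at 11 months. The arrays of the 2 ages did not overlap for 205 genes (2.22%), 124 higher (1.35%) and 81 lower (0.879%), and 19 genes (0.206%) differed by at least 2-fold, 11 higher and 8 lower. The median log2 difference over all genes was 0.01.

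The precision was enough to bound the difference of floored signals for most genes. The 95% interval of the difference lay within 2-fold for 8921 genes (96.8%) and within 1.5-fold for 6895 (74.8%). Of the 9214 genes 7610 were above the floor on all 8 arrays. For the others the floor can shrink both the difference and its spread, so a narrow interval does not bound the unfloored change. The median standard error was 0.16 on the log2 scale. In the same fit of the 16 F344 arrays, 454 genes passed between 24 and 11 months (4.93%) and 27 between 18 and 11 months (0.293%). Against 6 months, 682 passed at 24 months (7.40%) and 99 at 18 months (1.07%). The values below therefore describe single genes and gene groups, none of which passed across all genes, and each log2 difference is the mean of log2 signals at 11 months minus that at 6 months after signals under 32 were set to 32.

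Leaving out replicate 1 at 11 months, or all 4 F344 arrays with Vcp signal, brought no gene past the test either. The leading differences kept their sign both ways. Cdkn1a had a log2 difference of 1.39 without replicate 1 at 11 months and 1.49 without the 4 arrays, against 1.24 with all arrays. For Gsta3 these values were 1.71, 1.63 and 1.52, for Nr1d1 −1.16, −1.07 and −1.09, and for Cpt1a −1.55, −1.30 and −1.26. Abcb1a, the efflux pump described below, moved more, with −0.34 without the 4 arrays and −0.56 with all arrays. The number of genes lower at an unadjusted p under 0.05 was 237 without replicate 1 at 11 months and 231 without the 4 arrays, against 151 with all arrays. Among named genes with a log2 difference above 0.25 in size, 18 moved by over 1.5 times when 1 array was left out. Those described below with the array were Cyp4a8, Cyp2c12, Got1, Cd68, RT1-Da, Fcer1g and Cela1. The others were Sult2a6, Cyp4a3, Adh7, Ephx2, Ccng1, Sds, Dbp, Cry1, Stat3, Pdgfra and Mt1.

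**Figure D2:**
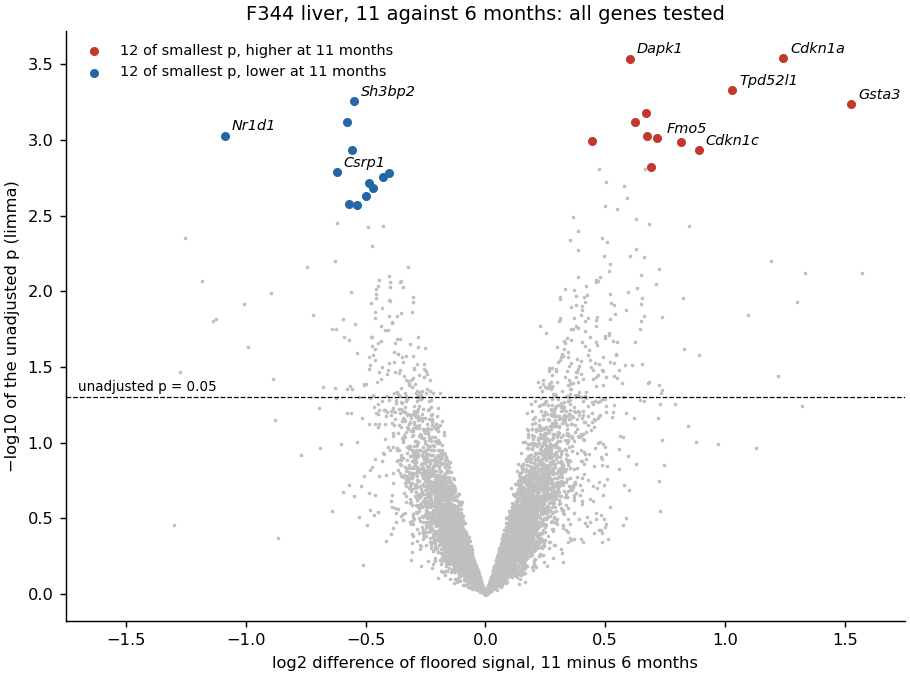
Log2 difference of floored signal, 11 minus 6 months (x axis), against the −log10 of the unadjusted p from limma (y axis) for the 9214 tested genes. Red and blue points are the 12 genes of smallest p on each side, and all genes, including these, had adjusted p-values of 0.718 or above.

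The smallest p belonged to Cdkn1a, which encodes p21, an inhibitor of cyclin-dependent kinases that p53 induces to stop the cell cycle. Its signals were 354, 445, 716 and 484 at 11 months, against 210, 159, 226 and 229 at 6 months. Every 11-month liver lay above every 6-month liver. The log2 difference was 1.24 (SE 0.27, 95% interval 0.67 to 1.82, unadjusted p = 0.000288, limma adjusted p = 0.718), a 2.37-fold difference. A second Cdkn1a probe set averaged 57.9 at 11 months and 28.2 at 6 months, with a log2 difference of 0.76 ± 0.22 (SE).

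2 further inhibitors of cyclin-dependent kinases also had all arrays apart. Cdkn1c, which encodes p57, read 61.3, 120, 94.2 and 122 at 11 months, against 60.1, 40.2, 54.7 and 54.3 at 6 months, a log2 difference of 0.89 ± 0.23 (SE, limma adjusted p = 0.718). Its lowest 11-month array, the one with the highest GAPDH ratio, was barely above the highest 6-month array. Cdkn2d, which encodes p19 of the INK4 family, read 48.2, 52.8, 43.7 and 57.4 at 11 months, against 38.8, 29.6, 37.3 and 37.0 at 6 months, a log2 difference of 0.48 ± 0.13 (SE, adjusted p = 0.765 by limma). The family did not move as one, since Cdkn1b (p27) differed by −0.10 and Cdkn2c (p18) by −0.11. Cdkn2d, Cdkn1b and Cdkn2c were chosen after their values were seen.

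Of 21 tested genes on a list of p53 targets and growth arrest genes, 0 passed. At an unadjusted p under 0.05, 4 were higher and none lower, against 2.24% and 1.64% of all genes. 16 of the 21 differences were positive, against 51.8% of all genes, with a median of 0.08 against 0.01 over all genes. Besides Cdkn1a these were Phlda3, which blocks Akt binding to membranes, Ccng1, a cyclin induced by p53, and Mdm2, the ubiquitin ligase that degrades p53. Phlda3 read 101, 98.4, 172 and 177 at 11 months, against 60.2, 91.3, 82.0 and 93.6 at 6 months, with no overlap. Its log2 difference was 0.71, and those of Ccng1 and Mdm2 were 0.47 and 0.45, with overlapping arrays. All 3 had limma adjusted p-values of 1.00, and Mdm2 was chosen after its values were seen. Replicate 3 at 11 months was the highest of the 8 arrays for Cdkn1a, Ccng1 and Mdm2. Genes of the dividing cell did not share this direction. On the list of cell cycle and DNA replication genes 9 of 19 differences were positive, and the median was −0.0004. Tk1, the thymidine kinase of dividing cells, alone had a low unadjusted p (log2 difference 0.47). A second Tk1 probe set differed by 0.17 ± 0.17 (SE).

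The promoters of 2 of these p53 targets are shown because each holds a half-site of the p53 response element, marked in capitals. They are RefSeq windows on the rat GRCr8 assembly, from 250 bases before to 50 bases after the gene's start. The Cdkn1a window is chr20:7150682-7150981 on the + strand, and its half-site begins 201 bases before the start. The Ccng1 window is chr10:25684827-25685126 on the - strand, and its half-site begins 232 bases before the start.
Cdkn1a promoter: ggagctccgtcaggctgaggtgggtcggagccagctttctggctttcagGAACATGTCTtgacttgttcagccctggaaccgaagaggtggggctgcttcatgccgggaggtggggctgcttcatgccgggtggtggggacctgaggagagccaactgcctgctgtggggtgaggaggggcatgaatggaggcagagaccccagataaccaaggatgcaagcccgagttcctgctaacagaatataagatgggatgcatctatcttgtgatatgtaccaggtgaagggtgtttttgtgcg
Ccng1 promoter: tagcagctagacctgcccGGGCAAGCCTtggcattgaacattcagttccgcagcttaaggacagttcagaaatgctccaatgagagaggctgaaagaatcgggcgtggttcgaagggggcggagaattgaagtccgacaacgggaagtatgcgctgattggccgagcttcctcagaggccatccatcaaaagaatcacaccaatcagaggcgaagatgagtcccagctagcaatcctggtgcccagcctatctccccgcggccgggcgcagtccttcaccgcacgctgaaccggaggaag
The half-site was searched by its standard consensus, which is the same on both strands, with no mismatch. It occurs in 2671 of 33469 rat promoters in the RefSeq table (7.98%) and in 8 of the 18 promoters found for the 21 tested list genes. The windows of Mdm2 and Phlda3 hold no match. A match is a run of letters and not a measured binding site.

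Of the 12 genes with the smallest p among those higher at 11 months, 8 had arrays that did not overlap, beside 1.35% of all genes. The 12 were chosen by p on these same arrays, so that count is a description. Their log2 differences began at 0.45. Gsta3, an alpha-class glutathione S-transferase, differed most of the 12, with signals of 188, 356, 297 and 295 at 11 months, against 42.1, 119, 197 and 86.6 at 6 months. The log2 difference was 1.52 (SE 0.36, 95% interval 0.77 to 2.28, limma adjusted p = 0.718), though the lowest 11-month array was below the highest 6-month array. That interval uses 1 variance over 4 ages and understates the spread at 6 months. The SD of log2 Gsta3 signal was 0.93, 0.39, 0.36 and 0.42 at 6, 11, 18 and 24 months. Alpha-class transferases are near copies of each other, so signal shared between them cannot be told apart here.

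Tpd52l1, a tumour protein D52 family member, read 246, 191, 204 and 290 at 11 months, against 118, 114, 149 and 79.4 at 6 months (log2 difference 1.03). Dapk1, a calcium-dependent kinase that promotes cell death, read 249, 242, 204 and 221 at 11 months, against 132, 136, 167 and 171 at 6 months (log2 difference 0.60). Both genes had all 4 arrays of 11 months above all 4 of 6 months, and a second Dapk1 probe set differed by 0.39. Lgals3bp, a secreted glycoprotein that binds galectins, was 189 ± 19.4 at 11 months and 119 ± 18.8 at 6 months, also without overlap (SD, n = 4 each). Atp6v1d, a subunit of the proton pump that acidifies lysosomes, was 1002 ± 235 at 11 months and 618 ± 65.6 at 6 months, with its lowest 11-month array (699) under the highest 6-month array (713). Chst14, which sulfates dermatan, Smim1, a small membrane protein, Map2k6, a kinase that activates p38, and Glt1d1 had log2 differences of 0.62, 0.71, 0.45 and 0.69. For Map2k6, 3 of the 6-month arrays were below the floor, so that its difference may be understated. Fmo5, the remaining gene of the 12, is described with the drug-metabolising enzymes.

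Of the 12 genes with the smallest p among those lower at 11 months, 10 had arrays that did not overlap, beside 0.879% of all genes. These 12 were likewise chosen by p on the same arrays, so the count is a description. Their log2 differences were modest, starting at −0.40, and only Nr1d1 reached 2-fold. Sh3bp2, an adaptor protein of immune signalling, read 34.2, 31.6, 33.6 and 34.0 at 11 months, against 43.4, 47.2, 47.4 and 58.8 at 6 months, so that all 11-month arrays were close to the floor. Csrp1, a LIM-domain protein of the actin skeleton, was 294 ± 51.1 at 11 months and 457 ± 105 at 6 months (SD, n = 4 each, log2 difference −0.62). Cirbp, the cold-inducible RNA-binding protein, was 74.1 ± 5.04 at 11 months and 109 ± 24.9 at 6 months, without overlap (log2 difference −0.54). Dbr1, the enzyme that opens intron lariats, differed by −0.57 and Cenpv, a protein of the centromere, by −0.49. Arhgap6, Zfp654, Zdhhc3, Ripply1, Sclt1 and Tmem263 made up the rest, with differences between −0.58 and −0.40. A second Zdhhc3 probe set, whose mean lay under the floor at both ages, differed by −0.07.

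Nr1d1 encodes REV-ERB alpha, a repressor in the circadian clock of the liver. Its signals were 78.1, 61.9, 40.3 and 101 at 11 months, against 113, 143, 203 and 124 at 6 months. All 11-month arrays lay below all 6-month arrays, with a log2 difference of −1.09 (SE 0.27, 95% interval −1.66 to −0.52, limma adjusted p = 0.718). Nr1d2, its paralog REV-ERB beta, also did not overlap, with 164, 210, 169 and 214 at 11 months, against 234, 375, 379 and 295 at 6 months (log2 difference −0.74). Dbp, a clock output factor, read 12.9, 13.1, 32.2 and 36.2 at 11 months, against 19.0, 75.7, 64.4 and 28.2 at 6 months, with 2 arrays of each age below the floor.

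The clock genes did not share a direction. Of 16 tested clock genes 9 differences were positive and 7 negative, 0 passed, and the median difference was 0.08. At an unadjusted p under 0.05, 2 were lower and 0 higher, against 1.64% and 2.24% of all genes. Per2 and Cry1, which form the repressing arm of the clock, differed by 0.49 each, with 95% intervals of −0.11 to 1.09 and −0.18 to 1.15, and were chosen after their values were seen. Nr1d1 and Nr1d2 also differed at the other ages. Nr1d1 averaged 145, 70.4, 207 and 35.6 and Nr1d2 averaged 321, 189, 452 and 142 at 6, 11, 18 and 24 months. The labels used here do not give the time of day at which livers were taken, and its part in these values was not tested.

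Nr1d1 has 2 promoters in the RefSeq table, 1 of which holds the clock's E-box, CACGTG, shown here in capitals because Nr1d1 had the smallest p of the clock genes. That window is chr10:84229405-84229704 on the - strand of GRCr8, with the E-box beginning 191 bases before the start.
Nr1d1 promoter: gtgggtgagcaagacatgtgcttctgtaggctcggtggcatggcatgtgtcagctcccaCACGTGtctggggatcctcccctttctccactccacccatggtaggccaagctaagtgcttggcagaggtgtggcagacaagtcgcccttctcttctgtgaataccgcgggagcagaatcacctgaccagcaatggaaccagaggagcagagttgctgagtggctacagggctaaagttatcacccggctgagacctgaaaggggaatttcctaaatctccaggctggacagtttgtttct
The E-box reads the same on both strands and occurs in 6.42% of the 33469 promoters. It occurs in 3 of the 16 promoters found for the tested clock genes, those of Nr1d1, Bhlhe40 and Tef. No binding was measured.

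**Figure D3:**
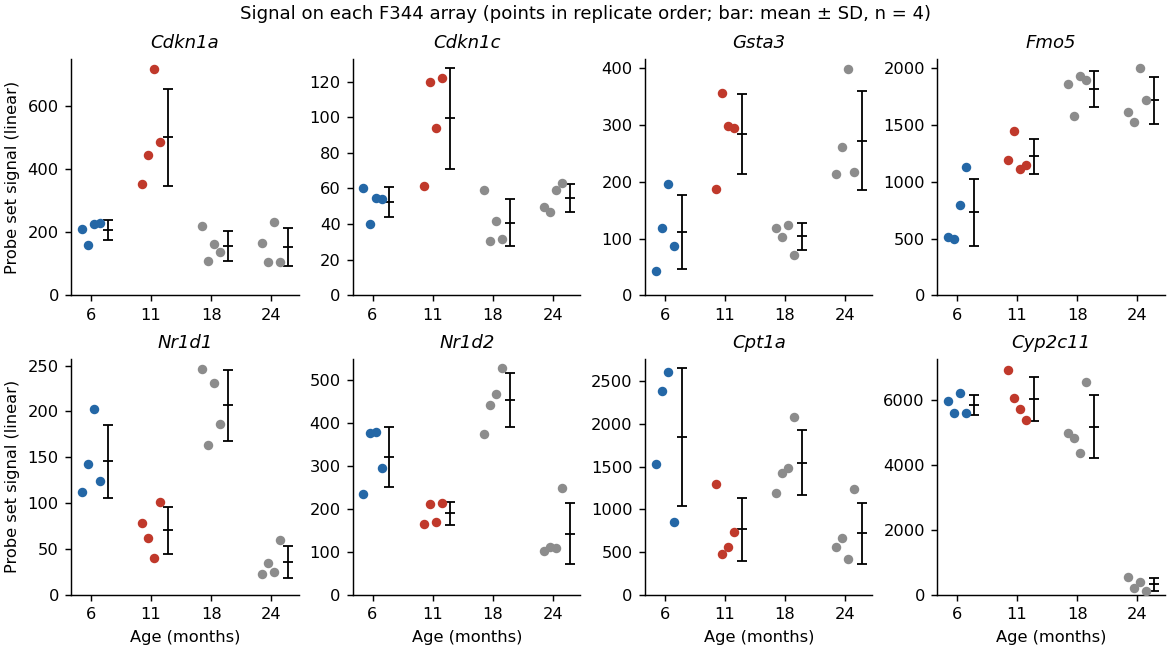
Linear probe set signal (y axis) on each F344 array at 6, 11, 18 and 24 months for 8 genes, with the mean ± SD of 4 arrays beside the points. Cdkn1a averages 206, 500, 157 and 152 at the 4 ages, Nr1d1 averages 145, 70.4, 207 and 35.6, and Cyp2c11 averages 5855, 6038, 5193 and 316.

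The enzymes and transporters that handle foreign compounds, the study's subject, gave mostly small differences. Of 120 such genes tested on 6 lists, 0 passed, 5 were higher and 5 lower at an unadjusted p under 0.05 (8.33%, against 3.87% of all genes), and the median difference was 0.05. For 101 of them (84.2%) the 95% interval lay within 2-fold, a smaller share than the 96.8% over all genes. Of 33 cytochromes P450 none had an unadjusted p under 0.05. Cyp1a2, which oxidises aromatic amines and caffeine, was 2616 ± 618 at 11 months and 2685 ± 678 at 6 months (SD, n = 4 each). Cyp2e1, which oxidises ethanol and small solvents, was 6987 ± 574 at 11 months and 6682 ± 569 at 6 months, with a 95% interval of −0.15 to 0.28. The P450s of smallest p were 2 fatty acid hydroxylases with opposite signs, Cyp4a8 (log2 difference 0.66, 95% interval −0.01 to 1.34) and Cyp4a3 (−0.32, interval −0.69 to 0.04). The difference of Cyp4a8 was 0.34 without replicate 1 at 6 months, and a second probe set differed by 0.21.

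Among 33 other phase 1 enzymes 4 were higher and 1 lower at an unadjusted p under 0.05, against 2.24% higher and 1.64% lower over all genes. Fmo5, a flavin-containing monooxygenase, read 1191, 1447, 1110 and 1146 at 11 months, against 517, 493, 792 and 1127 at 6 months. 3 of the 6-month livers lay below all 11-month livers and the fourth lay among them (log2 difference 0.82, SE 0.20, limma adjusted p = 0.718). Aldh1a1, which oxidises retinal, read 2058, 2269, 2618 and 2335 at 11 months, against 784, 1165, 2341 and 1264 at 6 months (log2 difference 0.85). Its 6-month values also hold 1 array, replicate 3, in the 11-month range. The SD of log2 signal at 6, 11 and 18 months was 0.56, 0.17 and 0.13 for Fmo5 and 0.65, 0.14 and 0.09 for Aldh1a1. Tests of both genes use 1 variance over 4 ages, which understates the spread at 6 months. Adh7, an alcohol dehydrogenase, was 147 ± 16.4 at 11 months and 97.0 ± 29.0 at 6 months without overlap (SD, n = 4 each), and Ces2c, a carboxylesterase, differed by 0.74. Ephx2, the soluble epoxide hydrolase, was the 1 lower gene, with a log2 difference of −0.29. Ces2c and Ephx2 were chosen after their values were seen.

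Of 20 glutathione S-transferases 15 differences were positive, against 51.8% of all genes. Gsta3 was higher and Gstp3 (log2 difference −0.57) lower at an unadjusted p under 0.05, against 2.24% and 1.64% of all genes. Gstp1, the pi-class transferase used as a marker of altered hepatocytes, was 161 ± 59.3 at 11 months and 142 ± 14.1 at 6 months (SD, n = 4 each). Its 95% interval, −0.50 to 0.71, holds differences of either sign. Of 20 tested targets of NRF2, the sensor of electrophiles, 18 had positive differences, against 51.8% of all genes, with a median of 0.14. Only Gsta3, which is also on that list, had an unadjusted p under 0.05. Srxn1 and Txnrd1, which repair oxidised thiols, differed by 0.31 and 0.20. A second Txnrd1 probe set differed by 0.03 ± 0.32 (SE). The 5 tested UDP-glucuronosyltransferases and 10 sulfotransferases had no gene with an unadjusted p under 0.05.

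Drug and bile acid transporters leaned the other way. Of 19 tested, 16 differences were negative, against 47.9% of all genes, and the median was −0.11. At an unadjusted p under 0.05, 3 were lower and 0 higher, against 1.64% and 2.24% of all genes. Abcb1a, the P-glycoprotein efflux pump, read 91.5, 77.3, 89.6 and 76.0 at 11 months, against 141, 103, 155 and 102 at 6 months. The arrays did not overlap, the log2 difference was −0.56 (95% interval −0.97 to −0.15), and a second probe set differed by −0.78. Slc22a5, the carnitine transporter, was 53.5 ± 10.5 at 11 months and 82.6 ± 24.7 at 6 months, with overlap (SD, n = 4 each, log2 difference −0.60). Slc22a25, of the SLC22 family of organic ion transporters, was close to the floor at both ages, with 33.4 ± 1.82 at 11 months and 47.3 ± 8.87 at 6 months.

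None of the sex-dependent genes passed. Of 17 tested male-dominant genes 8 differences were positive and 9 negative, with a median of −0.02. The 95% interval lay within 2-fold for 11 of them. Cyp2c11, the main male-specific P450 of rat liver, read 6950, 6070, 5744 and 5387 at 11 months, against 5978, 5597, 6219 and 5624 at 6 months. The groups overlapped fully, with a log2 difference of 0.04 (95% interval −0.63 to 0.71). Cyp3a2, a male-dominant steroid hydroxylase, Hsd3b5, a steroid reductase, and Sult1e1, the estrogen sulfotransferase, differed by 0.11, −0.17 and −0.08. The interval of Cyp2c11 uses 1 variance over 4 ages, and the SD of its log2 signal was 0.07, 0.16, 0.25 and 0.97 at 6, 11, 18 and 24 months. Hsd17b2, which inactivates estradiol and testosterone, was the 1 male-dominant gene of the 17 with an unadjusted p under 0.05. Over all genes 1.64% were lower at that p. It read 353, 801, 942 and 1241 at 11 months, against 734, 2294, 2296 and 2265 at 6 months (log2 difference −1.18, SE 0.40, limma adjusted p = 1.00). In each age replicate 1 was the lowest array.

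Of 13 tested female-dominant genes 9 differences were positive and 3 negative, against 51.8% and 47.9% of all genes. Their median was 0.22, against 0.01 over all genes, and the 95% interval lay within 2-fold for 8 of them. Prlr, the prolactin receptor, read 248, 83.3, 27.4 and 164 at 11 months, against 13.7, 44.0, 60.0 and 30.8 at 6 months. 3 of the 11-month livers lay above all 6-month livers and replicate 3 lay below the floor, as did 2 of the 6-month livers. The log2 difference was 1.33 (SE 0.44, 95% interval 0.41 to 2.26, limma adjusted p = 1.00), and 2 further Prlr probe sets differed by 0.87 and 0.49. That interval uses 1 variance over 4 ages and understates the spread at 11 months. The SD of log2 Prlr signal was 0.43, 1.29, 0.21 and 0.34 at 6, 11, 18 and 24 months. Prlr averaged 37.1, 131, 295 and 1368 at 6, 11, 18 and 24 months. Cyp2c12, the female-specific P450, read 177, 957, 973 and 342 at 11 months, against 367, 336, 221 and 405 at 6 months, so that 2 of the 11-month livers stood above all others and 1 below them. Its log2 difference of 0.59 had a 95% interval of −0.61 to 1.78. It was 1.07, 0.26 and 0.25 without replicate 1, 2 or 3 at 11 months. Sult2a6, a hydroxysteroid sulfotransferase, and Trim24 differed by 0.88 and 0.42, each with an interval that holds 0. Akr1b7, an aldose reductase family member, was below the floor in all 4 6-month livers and read 17.2, 64.5, 62.5 and 33.4 at 11 months.

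Genes of growth hormone and insulin-like growth factor signalling showed no member with an unadjusted p under 0.05 among 15 tested. Igf1, the circulating growth factor made by the liver, was 4884 ± 401 at 11 months and 5186 ± 206 at 6 months, with a 95% interval of −0.32 to 0.14 (SD, n = 4 each). Ghr, the growth hormone receptor, differed by −0.16. Rgn, a calcium-binding protein also called senescence marker protein, was 4283 ± 358 at 11 months and 4269 ± 229 at 6 months. Alb, albumin, was 8421 ± 252 at 11 months and 8164 ± 271 at 6 months. For both the 95% interval lay within 1.5-fold.

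**Figure D4:**
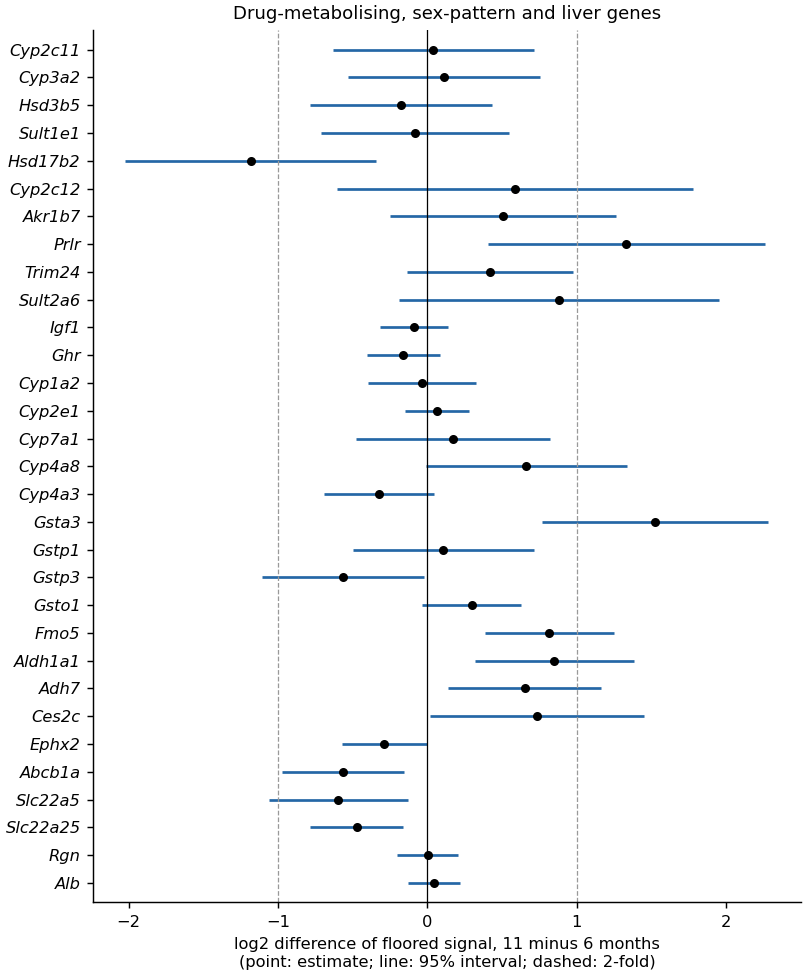
Log2 difference of floored signal, 11 minus 6 months (point), with its 95% interval (line) for 31 drug-metabolising, sex-dependent and liver genes, and dashed lines at 2-fold. Igf1, Cyp2e1, Rgn and Alb have narrow intervals around 0, whereas Cyp2c12, Prlr and Sult2a6 have intervals that reach past 2-fold.

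Genes of the fasting and glucocorticoid response were lower in the sense that 21 of 28 tested differences were negative, against 47.9% of all genes, with a median of −0.17 against 0.01 over all genes. None passed, and 6 were lower at an unadjusted p under 0.05 with 0 higher, against 1.64% lower and 2.24% higher over all genes. Cpt1a, which admits fatty acids to mitochondria and limits their oxidation, read 1300, 472, 560 and 731 at 11 months, against 1533, 2387, 2609 and 853 at 6 months. The groups overlapped through replicate 1 at 11 months and replicate 4 at 6 months (log2 difference −1.26, SE 0.38, limma adjusted p = 1.00), and a second probe set differed by −0.90. Sds, serine dehydratase, which feeds serine into glucose synthesis, read 106, 189, 41.4 and 140 at 11 months, against 284, 303, 203 and 227 at 6 months, without overlap (log2 difference −1.28, SE 0.55). Klf9, a transcription factor induced by glucocorticoids, was 721 ± 262 at 11 months and 1027 ± 97.3 at 6 months (SD, n = 4 each). Errfi1, an inhibitor of the EGF receptor, Got1, the cytosolic aspartate transaminase, and Dusp1, a phosphatase of MAP kinases, had log2 differences of −0.28, −0.88 and −0.63, and Dusp1 was chosen after its values were seen. Got1 read 93.2, 186, 391 and 474 at 11 months, against 476, 652, 272 and 442 at 6 months, and its log2 difference was −0.43 without replicate 1 at 11 months. Pck1, the key enzyme of glucose synthesis, was 4147 ± 213 at 11 months and 4968 ± 261 at 6 months, with arrays apart but a small log2 difference of −0.26. The labels used here do not give the feeding state at necropsy, and its part was not tested.

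No lipid gene passed. Of 32 genes of fatty acid oxidation and PPAR-alpha targets 23 differences were negative, against 47.9% of all genes, with a median of −0.07. At an unadjusted p under 0.05, 1 was higher and 2 lower, against 2.24% and 1.64% of all genes. The higher one was Cidea, a lipid droplet protein, with 243 ± 106 at 11 months and 118 ± 93.9 at 6 months (SD, n = 4 each). Crat, carnitine acetyltransferase, was lower with Cpt1a (log2 difference −0.43). Of 23 genes of fatty acid synthesis 12 differences were positive and 11 negative. At the same unadjusted p 0 were higher and 2 lower, against 2.24% and 1.64% of all genes. The 2 lower ones make polyunsaturated fatty acids. Elovl2, an elongase, read 238, 117, 118 and 127 at 11 months, against 252, 509, 313 and 245 at 6 months (log2 difference −1.14). Fads1, the delta-5 desaturase, was 2460 ± 366 at 11 months and 3365 ± 336 at 6 months. Neither gene's arrays overlapped. Elovl6, which elongates saturated fatty acids, differed by 1.32 with a 95% interval of −0.04 to 2.69. Cyp7a1, the rate-limiting enzyme of bile acid synthesis, was 1215 ± 443 at 11 months and 1054 ± 282 at 6 months. Of 21 cholesterol synthesis genes 16 differences were positive, against 51.8% of all genes, with a median of 0.12. None of these 21 genes or of 13 bile acid genes had an unadjusted p under 0.05. Among 47 genes of the urea cycle and amino acid breakdown 0 were higher and 3 lower at that p, against 2.24% and 1.64% of all genes. The lower ones were Sds, Got1 and Agxt, which detoxifies glyoxylate and had a log2 difference of −0.48.

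Immune genes leaned upward at low amplitude, and in whole liver more cells of a type and more RNA per cell cannot be told apart. None of these genes passed. Over all genes 51.8% of differences were positive and 2.24% were higher at an unadjusted p under 0.05. Of 9 MHC class II genes 8 differences were positive with a median of 0.29, and of 16 macrophage markers 13 were positive with a median of 0.25, with 0 of either list at that p. Of 34 interferon-responsive genes 28 were positive with a median of 0.11, and 3 were higher at that p. Of these 3, Irf1, a transcription factor of the interferon response, was 249 ± 48.3 at 11 months and 183 ± 46.7 at 6 months (SD, n = 4 each), and Irf7 and the peptide transporter Tap1 had log2 differences of 0.28 and 0.26. RT1-Da, an MHC class II chain, read 307, 735, 445 and 543 at 11 months, against 385, 282, 358 and 365 at 6 months. Its 3 highest arrays were 11-month ones and 1 11-month array was among the lowest (log2 difference 0.49, 95% interval −0.16 to 1.13). Ctss, a lysosomal protease, Fcer1g, an Fc receptor subunit, and Cd68, a lysosomal marker of macrophages, had differences of 0.32, 0.29 and 0.36, with intervals that hold 0. Replicate 2 at 11 months set the value of Cd68, which was 0.12 without it, and moved RT1-Da to 0.28 and Fcer1g to 0.19.

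Lymphocyte and neutrophil markers were near the limit of the arrays. 7 of 17 T and NK cell markers, 2 of 5 B and plasma cell markers and 3 of 4 neutrophil markers were below the floor on all 8 arrays. Lck, a kinase of T cells, was 64.3 ± 5.74 at 11 months and 50.4 ± 6.04 at 6 months (SD, n = 4 each, log2 difference 0.35). S100a9, a neutrophil protein, differed by 0.58. Stat3, which carries the interleukin 6 signal, had a log2 difference of 0.73 with 1 probe set and 0.08 with another, and Il6r, its receptor chain, had −0.35. Lbp, an acute-phase protein that binds lipopolysaccharide, differed by 0.23, and the 22 acute-phase genes had a median of −0.01. Of 27 complement and coagulation genes 21 differences were negative, against 47.9% of all genes, with a median of −0.07. None of the 27 had an unadjusted p under 0.05.

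None of the markers of other cells passed. Of 23 stellate cell and collagen genes 18 differences were positive, against 51.8% of all genes, with a median of 0.19. Pdgfra, a receptor of stellate cells, was the 1 gene higher at an unadjusted p under 0.05 (log2 difference 0.36), against 2.24% of all genes. Col14a1, a collagen chain, was 151 ± 4.85 at 11 months and 121 ± 14.1 at 6 months without overlap (SD, n = 4 each). Of 15 endothelial markers 12 differences were negative, against 47.9% of all genes, with a median of −0.13. Among red-cell genes, Hba-a3, an alpha globin, read 327, 441, 214 and 304 at 11 months, against 40.0, 168, 233 and 76.0 at 6 months. Its log2 difference of 1.57 (SE 0.52) was the highest of all genes tested, with overlap through replicate 3 at both ages. It was 1.11 without replicate 1 at 6 months. Alas2, the heme synthesis enzyme of red-cell precursors, differed by 0.79, and all 3 tested genes of the red-cell list, which does not hold Hba-a3, had positive differences. The part of blood left in the tissue was not tested. Of 6 pancreatic markers 3 were below the floor on all 8 arrays. Cela1, an elastase, read 73.3, 176, 169 and 57.5 at 11 months, against 238, 105, 154 and 213 at 6 months, with overlap. Its log2 difference was −0.68, and −0.39 without replicate 4 at 11 months, whereas the other 2 tested pancreatic markers, Cpb1 and Amy2a3, differed by 0.13 and 0.08.

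Groups often followed in ageing liver gave small median differences, though single members differed more. The median was 0.03 for oxidative phosphorylation, 0.04 for the heat shock and unfolded protein response and −0.004 for metallothionein and iron handling. Among 69 oxidative phosphorylation genes the largest difference of either sign was 0.24, and the 95% interval lay within 2-fold for all 69. The 21 antioxidant enzymes had a median of 0.03 and 1 gene higher at an unadjusted p under 0.05, against 2.24% of all genes. It was Glrx, a glutaredoxin (log2 difference 0.38). A second Glrx probe set differed by 0.10 ± 0.57 (SE). The 25 heat shock and unfolded protein response genes had 1 gene lower at an unadjusted p under 0.05, against 1.64% of all genes. It was Herpud1, a component of protein degradation at the endoplasmic reticulum (log2 difference −0.63). Tfrc, the transferrin receptor, had arrays that did not overlap, with 743, 562, 502 and 612 at 11 months, against 426, 356, 427 and 378 at 6 months (log2 difference 0.60). Mt1, metallothionein, differed by −0.88 with a 95% interval of −1.84 to 0.09.

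**Figure D5:**
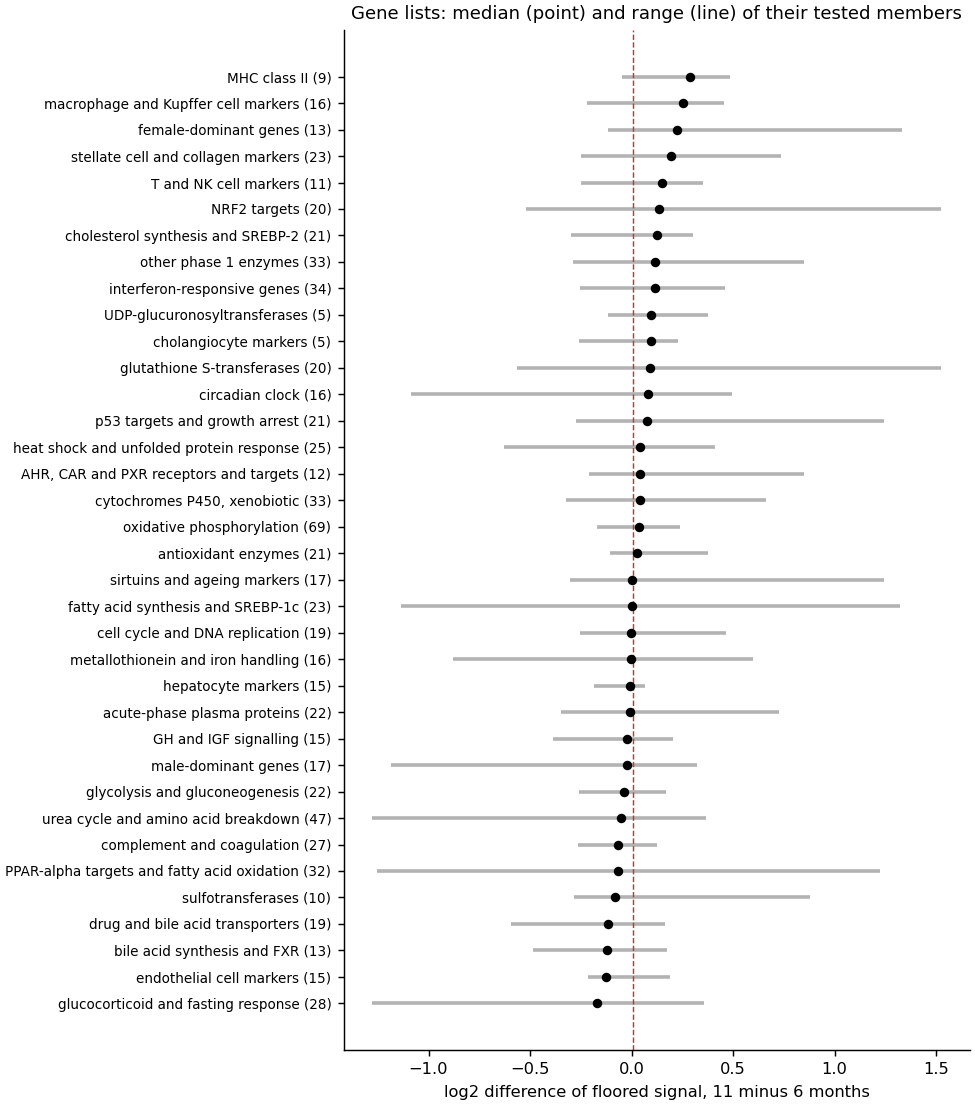
Median (point) and range (line) of the log2 differences, 11 minus 6 months, for each gene list with at least 5 tested genes, whose number is in parentheses. The dashed line is the median of all 9214 genes, 0.01. The list medians run from −0.17 for the glucocorticoid and fasting response to 0.29 for MHC class II.

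The genes of smallest p took different courses at later ages. Since they were chosen on the arrays of 6 and 11 months, their rank among the 4 ages is a description. Of the 12 genes higher at 11 months 8 had their highest mean there, and of the 12 lower genes 8 had their lowest mean there. Cdkn1a averaged 206, 500, 157 and 152 and Cdkn1c averaged 52.3, 99.4, 40.8 and 54.6 at 6, 11, 18 and 24 months. Fmo5 instead averaged 732, 1223, 1818 and 1718, and Dapk1 151, 229, 175 and 316. The sex-dependent genes differed most at the oldest age: Sult1e1 averaged 6365, 6024, 4830 and 280, Hsd3b5 averaged 2584, 2311, 1998 and 43.3, and Akr1b7 averaged 17.8, 44.4, 52.6 and 2183 at the 4 ages.

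Brown Norway rats of 12 against 4 months gave the nearest comparison of mid-life ages in another strain, with 3 controls at each age. The filter and the estimate of spread used all 18 Brown Norway arrays, those of toluene-exposed rats included. In that comparison too 0 of 8586 genes (0%) passed and 334 (3.89%) had an unadjusted p under 0.05. Of the 24 genes of smallest p in F344 rats, 22 were tested in both strains with the same probe set. The direction was the same for 14 of the 22, against 54.0% of all 7964 genes so compared. Tpd52l1 is among the 22 but not the 14. It was under the floor on all 6 Brown Norway control arrays of these ages, so it had no direction there. Cdkn1a read 51.7, 47.4 and 101 at 12 months, against 82.1, 229 and 55.6 at 4 months, in Brown Norway livers, a log2 difference of −0.69 ± 0.55 (SE). Gsta3 read 143, 341 and 217 at 12 months, against 581, 457 and 456 at 4 months, a difference of −1.17 ± 0.57 (SE), opposite to that in F344 livers. The test of the difference between the strains' log2 differences passed for 0 of 7964 genes (0%), with 249 (3.13%) at an unadjusted p under 0.05. Gsta3 had an unadjusted p of 0.000341 and an adjusted p of 0.906 in that limma-based test. Dbr1 was the 1 gene of these 22 with an unadjusted p under 0.05 in Brown Norway livers, against 3.89% of all genes there. It differed by −0.36 ± 0.13 in Brown Norway and by −0.57 ± 0.16 in F344 livers (SE). Its 12-month Brown Norway control arrays all lay under the floor. Zfp654 and Phlda3 had estimates of like size in both strains. Zfp654 differed by −0.56 ± 0.14 in F344 and by −0.53 ± 0.32 in Brown Norway livers, and Phlda3 by 0.71 ± 0.24 and 0.75 ± 0.38 (SE). Neither had an unadjusted p under 0.05 in Brown Norway livers. There the Zfp654 arrays overlapped, and Phlda3 read 97.9, 106 and 126 at 12 months, against 87.5, 35.2 and 88.9 at 4 months. The ages are not the same in the 2 strains, so strain and age interval cannot be told apart.

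Some genes varied far more between rats of 1 age than between ages on the probe set that stood for them. Over all genes the median SD of log2 signal was 0.23 at 11 months and 0.20 at 6 months, and 5277 of 9214 genes had the larger SD at 11 months. Scd, the desaturase that makes oleic acid, read 2318, 761, 80.9 and 1492 at 11 months, against 1739, 1830, 2476 and 296 at 6 months. Mug1, a protease inhibitor of plasma, read 70.5, 172, 752 and 2133 at 11 months, against 167, 1692, 230 and 1242 at 6 months. At both ages replicate 1 was the lowest array for Mug1. Arf1, a GTPase of vesicle traffic, was also lowest on replicate 1 at 11 months (50.1, 174, 443 and 626). Vcl, a protein of cell adhesions, and Acot2, a mitochondrial thioesterase, were highest there (1657 and 1383). The spread of these 2 was not shared by their second tested probe sets. Those had SEs of the log2 difference of 0.13 and 0.16, against 0.59 and 0.67 for the chosen ones. A second Arf1 probe set averaged 222 at 11 months and 1.40 at 6 months. It was not tested, because it did not lie above the floor on at least 4 F344 arrays. Not all 11-month arrays were therefore above the floor, and the 2 means do not give a difference between the ages. Pbsn, a lipocalin, and Ly75, an endocytic receptor, were among the most variable at 6 months, with 21.3, 9.82, 10.1 and 247 and with 53.4, 28.4, 145 and 265.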

How the data were processed

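Total RNA, isolated with TriReagent and cleaned up on a column, was hybridised to Affymetrix Rat 230 2.0 arrays, per the labels' protocols. The authors deposited linear probe set intensity values, and the submitters' processing notes name MAS5 and RMA without version, role or order. F344 values exist for 23324 of 24946 probe sets. Of these 24946 17584 carry 1 gene symbol, 393 several and 6916 none, and 53 are array controls.

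Intensities under 32 were set to 32 and log2 was taken. The probe set of highest mean over the 16 F344 arrays stood for its gene, and 9214 genes above the floor on at least 4 of them were tested with limma 3.58.1 in R 4.3.3. The fit had a mean per age and moderated variances, with Benjamini-Hochberg adjustment over all genes and 95% intervals. Brown Norway controls were fitted separately (above the floor on at least 3 arrays), and the strains' differences were compared through their standard errors. Probe sets other than the chosen one come from a fit of all probe sets. The scripts were tested on simulated data. The precision is limited by the number of arrays, 4 at each age, and the p-values rest on separate animals.

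Members and the 41 gene lists were chosen with earlier results of these data known. Genes were named if among the 12 of smallest p in each direction, up to 3 of smallest p per list, a set of 15 genes of drug metabolism and ageing that was always named, or the 6 most variable at each age. Not all of the genes that the list rule gives are printed. Cyp2b1, of that set, is not analysed here. Per2, Cry1, Mdm2, Ces2c, Ephx2, Cdkn1b, Cdkn2c, Cdkn2d and Dusp1 were added after their values were seen. Alternatives changed the probe set rule, filter, floor, scaling, moderation, array weights and arrays used. A block for the arrays with Vcp signal, and leaving those arrays out, were added after the data were seen. Promoter sequences are RefSeq's on GRCr8, matched by symbol.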

Additional observations from a re-analysis of the deposited data

Results flagged for a closer look

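Within 4 arrays of an age, 1 array was set apart from the other 3 in 11 of 202 gene and age groups examined (5.45%), and chance alone gives about 1 in 20. Replicate 1 at 11 months, the array with the highest GAPDH ratio, accounted for 5 of the 11. On it Chst14 read 65.7, against 50.1 to 51.5 on the other 11-month arrays, Cyp2e1 read 6128, against 7224 to 7336, and Cdkn2c read 61.7, against 25.6 to 35.4. Errfi1 read 3432 there, against 2673 to 2762, and Elovl2 read 238, against 117 to 127. Dbp read 36.2 on replicate 4 at 11 months, where the other 3 arrays read 12.9 to 32.2 (the floor of 32 was applied before the gap was judged). Cd68 read 372 on replicate 2 at 11 months, against 187 to 200 on the other arrays of that age.

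At 6 months, Hsd17b2 read 734 on replicate 1, against 2265 to 2296 on the other 3 arrays. Gstp1 read 163 on replicate 4, against 134 to 137. Map2k6 read 35.8 on replicate 4, where the others lay between 20.9 and 29.2, below the floor. Il6r read 151 on replicate 2, against 108 to 114. The part of RNA quality in these single values was not tested.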

How the results depend on the processing

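No gene passed between 11 and 6 months under any of the 23 alternatives, and the smallest adjusted p in any of them was 0.053, for Klf9 with the GAPDH ratio as a covariate. No gene passed in the test between the strains under its 5 alternatives. The number of genes at an unadjusted p under 0.05 was 357 in the fit reported, between 271 and 506 when 1 array was left out, 164 with a floor 4 times as high, 212 among genes above the median of mean signal, 581 with the GAPDH ratio as a covariate and 792 with a block for the arrays with Vcp signal. The split into higher and lower was 206 and 151, but 177 and 190 after a further quantile normalization and 178 and 183 after scaling to a common median. Of 100 named genes 93 reversed under none of the alternatives in which they were tested, which were all 23 for 72 genes and at least 21 for the rest. Of these 93, Akr1b7, Trim24 and S100a9 had no difference left with the floor 4 times as high.

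The other 7 had small differences and changed sign under at least 1. With 1 array left out, the log2 difference ranged from −0.036 to 0.061 for Rgn, −0.030 to 0.092 for Cyp2c11, −0.14 to 0.12 for Cyp1a2, −0.037 to 0.41 for Cyp7a1 and −0.081 to 0.29 for Gstp1. With array quality weights it was −0.013 for Rgn, −0.0076 for Cyp2c11 and 0.0075 for Cyp1a2. Without arrays of GAPDH ratio above 2.5 it was −0.068 for Rgn, −0.012 for Cyp2c11 and 0.016 for Sult1e1. For Rgn it was −0.0141 after scaling to a common median, −0.0143 with the GAPDH covariate and −0.034 without the arrays with Vcp signal. The block for those arrays gave −0.037 for Gstp1 and 0.0069 for Cdkn2c. The cause was not tested.

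The log2 difference of the GAPDH ratio was 0.22, and −0.21 to 0.55 with 1 array left out, the negative value being that without replicate 1 at 11 months. No paired analysis was possible because the labels give the animals of the 2 ages no shared numbers. Signals near the floor limit what can be measured: 7610 of the 9214 genes were above it on all 8 arrays.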
